A study of Homo sapiens with 7 samples.

Results

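The autophagy genes described here are 40 human genes that act in autophagosome formation, cargo capture and the transcription of autophagy genes. They were taken from the deposited table by gene symbol, which found 38 of the 40 among 11408 genes with values. ATG101 is listed there under an older symbol, was matched by its gene identifier and is given apart from the counts, and GABARAP is not analysed here. All 38 genes were fitted with no filter on low values.

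Macroautophagy encloses cytoplasm in a double membrane, the autophagosome, which then fuses with a lysosome where the contents are degraded. The ULK1 kinase complex starts the process when nutrients are short, a class III phosphatidylinositol 3-kinase complex marks the membrane, ATG9 and ATG2 supply lipid, and a pair of ubiquitin-like conjugation systems attach ATG8 proteins (the LC3 and GABARAP families) to it. The transcription factors TFEB and TFE3 switch on many autophagy and lysosome genes, and autophagy is known to be active in myeloid cells as they mature into monocytes and macrophages.

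RNA came from MOLM13, an established human acute myeloid leukemia cell line, grown in RPMI-1640 with serum and collected 6 days after guide RNAs were introduced by transduction. In 3 libraries, the controls, the cells carried sgRosa, described as non-targeting, and 4 carried guides against ZFP36L2, whose protein binds AU-rich elements in mRNA and promotes decay. The deposited columns name these guides 3 and 5, with 2 libraries each, while the labels number them otherwise and nothing pairs the names. Whether replicates came from separate cultures is not stated, and p-values measure the spread among these libraries, and each library is a transduced population in which unedited cells were not counted.

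Reads recovered from the deposited values numbered 16907955 to 25164359 in the controls and 28088053 to 38807816 in the guide libraries, so 1 read was worth 0.0261 to 0.0540 CPM, the authors' reads scaled to an adjusted library size. Control replicate 2 stood apart: its CPM summed to 1176476 against 912779 to 1028763 in the others, and it was the highest control for 25 of the 38 genes. ZFP36L2 itself was measured at 337, 334 and 311 CPM in the controls, 1132 and 1353 CPM with guide 3 and 734 and 689.7 CPM with guide 5. The mRNA of the targeted gene was therefore higher, not lower, in the libraries labelled sgZFP36L2, so the RNA does not show the knockout, and every direction below is between libraries as labelled. Of the myeloid leukemia markers 9 of 9 were measured, and 4 rose, 3 fell and 2 did not pass the test, with a summed level of 5068 to 7932 CPM in controls and 10975 to 20186 CPM in guide libraries. LYZ made up most of that sum, at a mean of 5088 CPM in controls and 13196 CPM in guide libraries. After the correction for GC content and length described below, 2 of these markers rose and 3 fell. SPI1 and CEBPA rose by 1.16 and 1.04 on the log2 scale. After correction they were at 0.33 and 0.22 and did not pass (limma adjusted p = 0.076 and 0.19). CSF1R rose by 2.44 and LYZ by 1.37, and FLT3, MPO and MEIS1 fell by 0.80, 0.80 and 0.93 on the log2 scale. Of the monocyte markers 9 of 9 measured rose, with a summed level of 339 to 507 CPM in controls and 1073 to 2560 CPM in guide libraries. In bulk RNA, more cells of a state and more RNA per cell cannot be told apart. The part of either marker list in the changes below was not tested. Of the T cell markers CD3D alone was measured, at 13.6 to 18.5 CPM in controls and 5.70 to 7.98 CPM in guide libraries, and none of the 3 B cell, 3 erythroid or 3 fibroblast markers had a value.

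Changes are log2 differences of CPM + 0.5 from a limma fit across all 11408 genes, given with their standard error (SE), and adjusted p-values are Benjamini-Hochberg values over all genes with a threshold of 0.05. Across both guides, 13 of the 38 autophagy genes rose, 3 fell and 22 did not pass the test. Among all genes 20.9% were called higher and 20.6% lower. The median change of the 38 was 0.13, against -0.05 for all genes. The libraries did not overlap for 19 genes: all 4 guide libraries lay above all 3 controls for 12 and below them for 7, against a background of 19.8% and 23.7% of all genes. The split of calls depended on the scaling: 14 rose and 7 fell with the same sum of CPM in each library or with quantile normalization, and 15 rose and 6 fell with median of ratios scaling. Under each of these scalings, more of all genes were also called lower than in the main fit. The share of the 38 that fell stayed below that of all genes, and the share that rose stayed above it. Without control replicate 2, 15 rose and 3 fell. The count of falls was 0 without control replicate 1, guide 3 replicate 2 or guide 5 replicate 1, and 7 without control replicate 3.

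**Figure D1:**
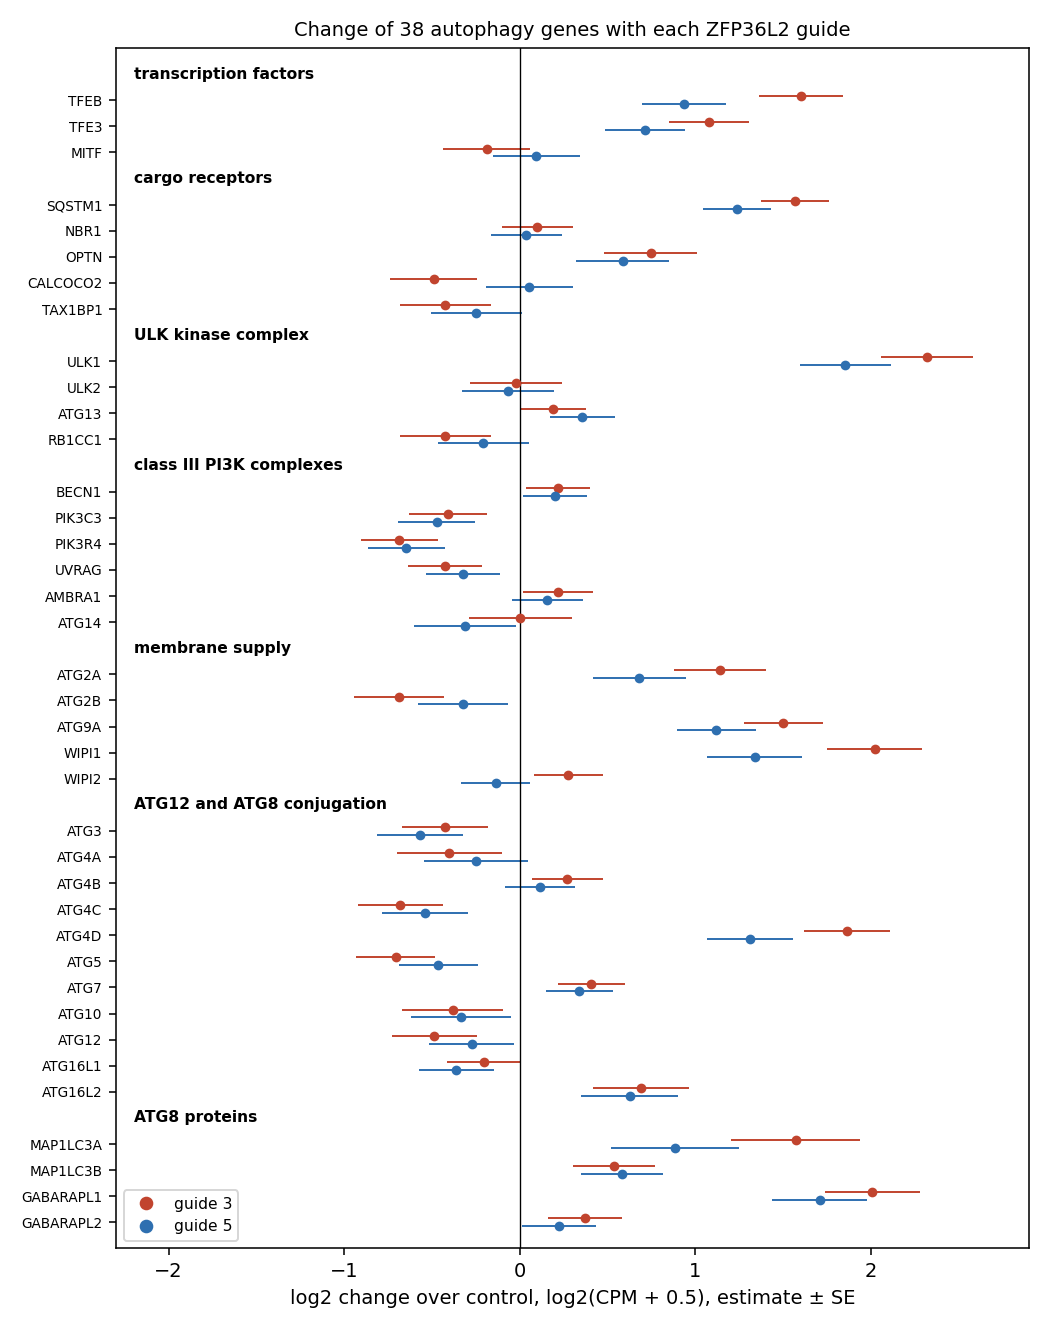
Log2 change (x axis, log2 of CPM + 0.5) of 38 autophagy genes grouped by role, with guide 3 in red and guide 5 in blue over the same 3 controls; points are estimates and bars are SE. ULK1, GABARAPL1, WIPI1, ATG4D, SQSTM1, ATG9A and TFEB lie to the right with both guides, and most genes of the conjugation and kinase complexes lie near 0 or to its left.

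Changes followed the base composition of transcripts. Across the 38 genes the change correlated with transcript GC content at Pearson r = 0.74 and Spearman rho = 0.78, a description over genes that share the same 7 libraries; over all genes the values were 0.51 and 0.64. The 13 that rose had a median GC content of 59.8% (44.8% to 64.8%), the 3 that fell 38.8% (34.8% to 43.9%) and the other 22 a median of 44.8%. Libraries of 1 group also differed in this respect. The deviation from the gene mean correlated with GC at -0.52 and -0.60 in control replicates 1 and 2 but -0.08 in control replicate 3. The values were 0.44 and 0.70 in guide 3 replicates 1 and 2, and 0.47 and -0.02 in guide 5 replicates 1 and 2. When GC content and length were corrected for in each library, 12 autophagy genes rose and 7 fell, against 17.7% and 29.4% of all genes, and 9 rose and 1 fell in both fits. The 3 that rose only in the corrected fit were NBR1 (0.29), BECN1 (0.35) and GABARAPL2 (0.49), and the 6 that fell only there were ATG2B (-0.36), WIPI2 (-0.36), ATG3 (-0.49), ATG4B (-0.40), ATG16L1 (-0.37) and UVRAG (-0.24). The cause of the GC trend was not tested. Corrected values are printed below for the members called before correction and where the correction changed a direction. For members called only in the corrected fit, the values above apply. Below, a gene said not to pass the test did not pass before correction, unless the correction is named.

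**Figure D2:**
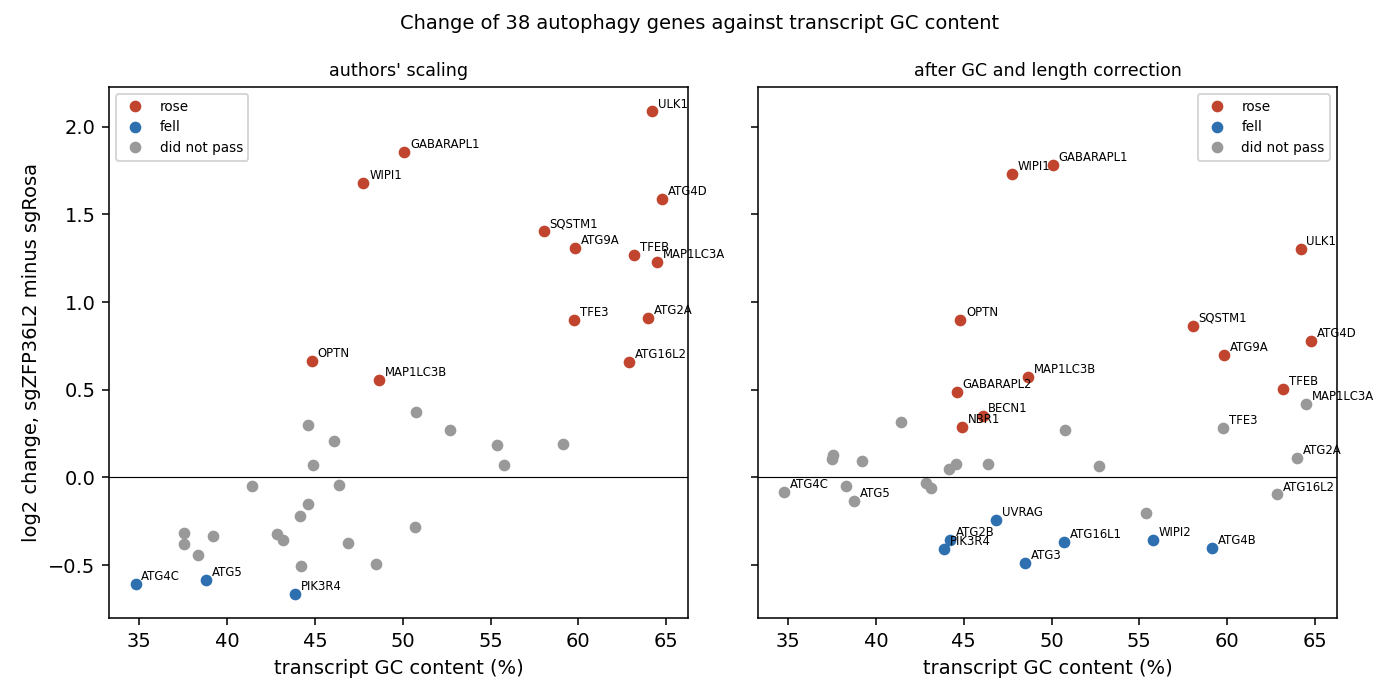
Change of the 38 autophagy genes (y axis, log2, sgZFP36L2 minus sgRosa) against transcript GC content (x axis, percent) with the authors' scaling (left) and after correction for GC and length (right); red points rose, blue fell, grey did not pass the test in that panel. ULK1, ATG4D, SQSTM1, ATG9A and TFEB at high GC move down but stay called, while GABARAPL1 and WIPI1 near the middle barely move.

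Because ZFP36L2 is known to bind AU-rich elements, the letters TATTTAT, with T read as U in the RNA, were counted on the sense strand of the 3′ UTR of 1 GENCODE 29 transcript per gene. They occurred in 11 of 38 genes (28.9%), against 32.5% of the 10553 fitted genes with a 3′ UTR, whose UTRs differ in length. Of genes that rose 3 of 13 held the letters, of those that fell 0 of 3, and of the rest 8 of 22. The sites below are those of the 3 genes that rose, with the paralog ULK2, which did not pass the test, for comparison. Each window has 30 bases, read 5′ to 3′ on the gene's strand (GRCh38), with the match in capitals. The ULK1 site is at chr12:131922868-131922897 (+), the ATG4D sites are at chr19:10553087-10553116 and chr19:10553099-10553128 (+), with overlapping windows, the MAP1LC3B sites are at chr16:87404264-87404293 and chr16:87404697-87404726 (+), and the ULK2 sites are at chr17:19774941-19774970 and chr17:19774901-19774930 (-).
ULK1: gggcatgtttgTATTTATtgcttcatggcc
ATG4D site 1: agatacaacacTATTTATttttttatttat
ATG4D site 2: atttattttttTATTTATgtcatgtcgggt
MAP1LC3B site 1: atggggttcacTATTTATagttttcttggg
MAP1LC3B site 2: agtggtcacttTATTTATaggatctttaaa
ULK2 site 1: aatttttacctTATTTATctgtatgaaatt
ULK2 site 2: atttgaacattTATTTATatgacgtttgta
A match describes letters in these transcripts only. ULK1, with 1 site, and ULK2, with 2 sites, differed in their change. The part of such sites in any change was not tested.

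Of the transcription factors, TFEB and TFE3 rose and MITF did not pass the test. TFEB, a regulator of lysosome and autophagy genes, was measured at 13.3, 14.9 and 19.9 CPM in the controls, 46.5 and 51.7 CPM with guide 3 and 36.1 and 26.2 CPM with guide 5. All guide libraries were above all controls, and TFEB rose by 1.27 ± 0.20 (SE; 3 control and 4 guide libraries; limma adjusted p = 0.00044), or by 0.51 after GC correction (adjusted p = 0.0031). TFE3, its close relative, stood at 30.5, 48.7 and 39.6 CPM in the controls, 84.1 and 81.2 CPM with guide 3 and 69.6 and 59.1 CPM with guide 5, again without overlap. Its rise of 0.90 ± 0.19 (limma adjusted p = 0.0030) did not pass after GC correction (0.28, adjusted p = 0.10). MITF, the melanocyte member of the family, ranged from 10.3 to 13.6 CPM in controls and 8.65 to 14.0 CPM in guide libraries, with overlap and a change of -0.05 ± 0.21 (limma adjusted p = 0.87). The summed level of the 3 factors per kb of transcript was 16.9 to 23.4 CPM per kb in controls and 31.3 to 47.6 in guide libraries, and the share of MITF in it was 9.65% to 13.7% and then 3.78% to 9.31%.

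TFEB and TFE3 are known to bind the E-box CACGTG, most strongly within TCACGTGA, so promoters were searched for both (250 bases before to 50 after the start site, RefSeq, GRCh38.p14; both motifs read the same on either strand, and the longer contains the shorter). A promoter sequence was matched for 34 of the 38 genes, 11 of them among those that rose. CACGTG was found in ATG3 and ATG14, neither of which passed the test, and in none of the 11, against 7.26% of 35116 promoters of that length and 10.5% of those of fitted genes. TCACGTGA was found in ATG3 alone of the 34, against 0.980% of all promoters and 2.07% of those of fitted genes. The 40-base windows are shown because they are all the matches in the set, with CACGTG in capitals. They lie on the minus strand at chr3:112561958-112561997 and chr3:112561935-112561974 for ATG3 and chr14:55411829-55411868 for ATG14.
ATG3 site 1: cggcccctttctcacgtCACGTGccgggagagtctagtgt
ATG3 site 2: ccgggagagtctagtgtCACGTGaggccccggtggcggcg
ATG14: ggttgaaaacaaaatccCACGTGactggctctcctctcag
The second ATG3 match is the one inside TCACGTGA. Other start sites and distal elements were not searched.

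Among the cargo receptors, proteins that tether ubiquitin-marked cargo to ATG8, SQSTM1 and OPTN rose and NBR1, CALCOCO2 and TAX1BP1 did not pass the test. SQSTM1 (p62), which carries ubiquitinated proteins and is itself degraded by autophagy, was at 109, 130.5 and 139 CPM in the controls, 371 and 376 CPM with guide 3 and 324 and 272 CPM with guide 5. The groups were far apart, a rise of 1.40 ± 0.16 or 2.64-fold (limma adjusted p = 3.4e-05), and 0.86 after GC correction (adjusted p = 4.4e-05). OPTN, a receptor for mitochondria and bacteria, was at 11.3, 17.6 and 9.78 CPM in the controls, 23.1 and 19.5 CPM with guide 3 and 18.9 and 19.0 CPM with guide 5. Its lowest guide library lay just above control replicate 2, and the rise was 0.66 ± 0.22 (limma adjusted p = 0.029) or 0.90 after GC correction (adjusted p = 0.00051). The OPTN call was lost when any library other than control replicate 2 was left out (adjusted p = 0.061 to 0.099), and without that one the change was 0.90 (adjusted p = 0.0010). NBR1, a receptor related to SQSTM1, changed by 0.07, CALCOCO2 (NDP52, a receptor for bacteria and mitochondria) by -0.22 and TAX1BP1 (a receptor of the same family) by -0.34, with limma adjusted p of 0.76, 0.41 and 0.22. For all of these 3 the groups overlapped, and control replicate 2 was the highest control, at 143, 241 and 270.2 CPM.

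**Figure D3:**
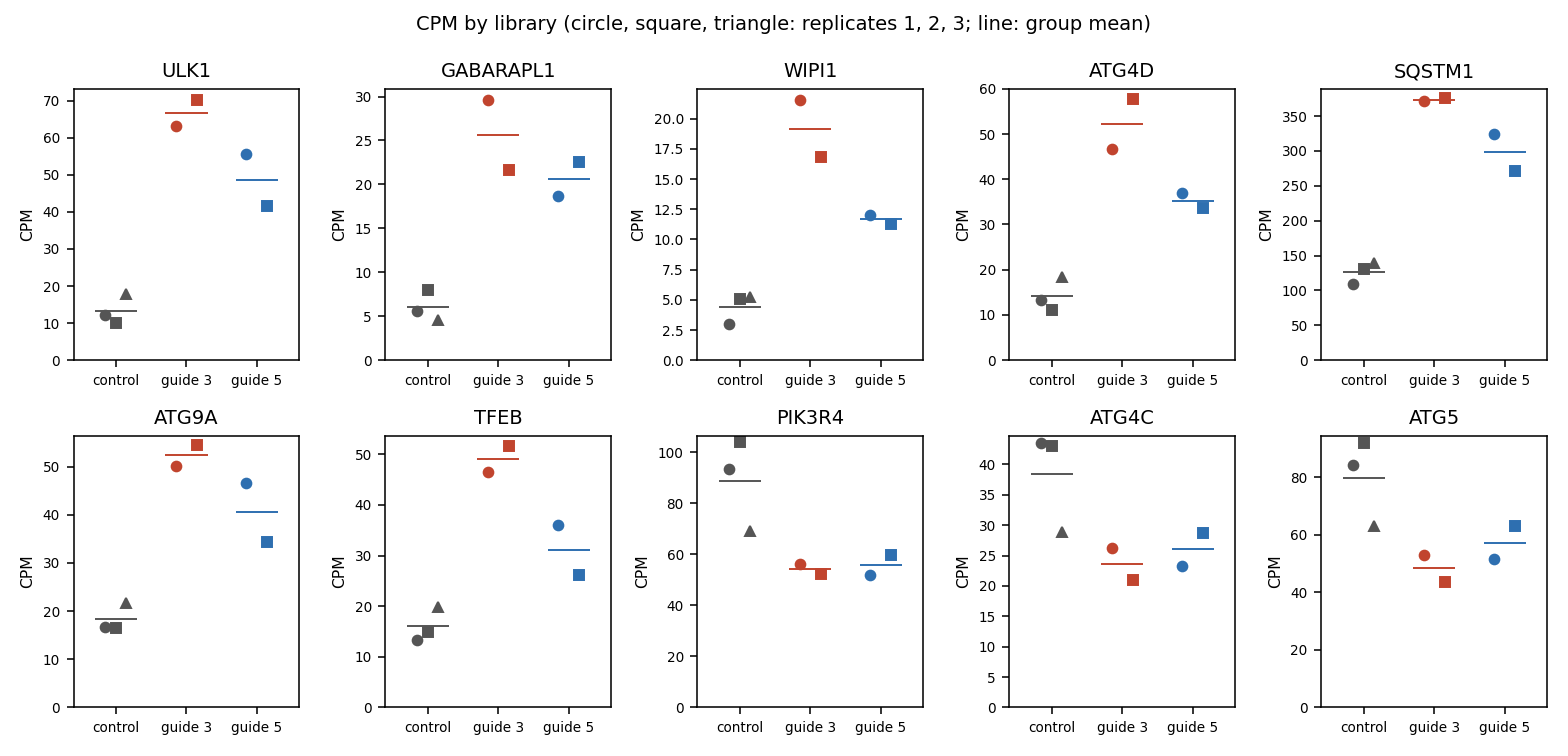
CPM (y axis, starting at 0) in each library of 7 genes that rose under every alternative and of the 3 that fell; circles, squares and triangles are replicates 1, 2 and 3, and lines are group means. For the 7 genes that rose the guide libraries lie clear of the controls, while for ATG4C and ATG5 the lowest control nearly meets the highest guide library, and for PIK3R4 it lies at 69.1 against 59.8 CPM.

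Within the ULK kinase complex, which starts autophagosome formation, ULK1 rose and its partners did not pass the test. ULK1 (chr12:131894651-131923167, GRCh38), the catalytic subunit and a target of the nutrient kinases, was at 12.1, 9.91 and 17.9 CPM in the controls, 63.1 and 70.2 CPM with guide 3 and 55.6 and 41.4 CPM with guide 5. Every guide library was above every control. The rise was 2.09 ± 0.22 or 4.25-fold (limma adjusted p = 1.3e-05), the largest of the 38 in this fit. After GC correction it was 1.30 (adjusted p = 7.2e-05), below the corrected rises of GABARAPL1 (1.78) and WIPI1 (1.73). ULK2, its paralog, stayed between 3.56 and 5.05 CPM in all 7 libraries, with a change of -0.04 ± 0.22 (limma adjusted p = 0.88). Per kb of transcript ULK1 made up 69.0% to 84.3% of the ULK1 and ULK2 sum in controls and 92.9% to 94.9% in guide libraries; ULK1 has a GC content of 64.2% and ULK2 of 46.4%. ATG13, the regulatory subunit, lay at 111 to 129 CPM in controls and 137 to 161 CPM in guide libraries, apart but with a change of only 0.27 ± 0.15 (limma adjusted p = 0.17). RB1CC1 (FIP200), the scaffold, overlapped between groups and changed by -0.32 ± 0.22 (limma adjusted p = 0.25). ATG101, a partner of ATG13, was at 21.1, 19.0 and 22.0 CPM in the controls and 22.2 to 28.7 CPM in guide libraries. Its change was 0.25 ± 0.18 (limma adjusted p = 0.25), and it turned to -0.39 after GC correction (adjusted p = 0.019).

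Of the 6 genes of the class III PI3K complexes, which make the lipid that recruits later factors, 1 fell and 5 did not pass the test. PIK3R4 (VPS15), the regulatory subunit, was at 93.5, 104 and 69.1 CPM in the controls, 56.2 and 52.2 CPM with guide 3 and 52.0 and 59.8 CPM with guide 5. All guide libraries were below the controls, and the change was -0.67 ± 0.18 (limma adjusted p = 0.012) or -0.41 after GC correction (adjusted p = 0.0098). The call was lost without control replicate 1 (adjusted p = 0.0502), guide 3 replicate 2 (0.056) or guide 5 replicate 1 (0.063). PIK3C3 (VPS34), the lipid kinase, and UVRAG, a subunit of the endosomal complex, also lay below the controls in every guide library but did not pass, with changes of -0.44 ± 0.18 and -0.37 ± 0.18 (limma adjusted p = 0.070 and 0.11). BECN1, the core scaffold, was at 87.7, 88.9 and 87.7 CPM in the controls and 99.6 to 106 CPM in guide libraries, a change of 0.21 ± 0.15 (limma adjusted p = 0.28). ATG14, the subunit specific to autophagy, changed by -0.15 ± 0.24, and AMBRA1, a BECN1 regulator, by 0.19 ± 0.17 (limma adjusted p = 0.63 and 0.38), both with overlap.

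Membrane supply held 3 genes that rose of 5. WIPI1, which binds the lipid made by the PI3K complex, was at 3.02, 5.05 and 5.20 CPM in the controls, 21.6 and 16.8 CPM with guide 3 and 12.02 and 11.3 CPM with guide 5. The groups did not overlap, and the rise was 1.68 ± 0.23 or 3.20-fold (limma adjusted p = 0.00012) and 1.73 after GC correction (adjusted p = 0.00018). WIPI2, its paralog with the same lipid preference, ranged from 91.3 to 112 CPM in controls and 83.8 to 127 CPM in guide libraries. Its change was 0.07 ± 0.16 (limma adjusted p = 0.75), which turned to -0.36 after GC correction (adjusted p = 0.0056). WIPI1 nonetheless remained the smaller part of the WIPI1 and WIPI2 sum per kb, 3.68% to 5.48% in controls and 11.96% to 17.2% in guide libraries.

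ATG9A, the lipid scramblase carried on vesicles, was at 16.8, 16.4 and 21.7 CPM in the controls, 50.2 and 54.5 CPM with guide 3 and 46.6 and 34.4 CPM with guide 5. It rose without overlap by 1.31 ± 0.19 (limma adjusted p = 0.00021), or 0.70 after GC correction (adjusted p = 0.0011). ATG2A and ATG2B transfer lipid into the growing membrane. ATG2A was at 19.97, 16.8 and 29.8 CPM in the controls, 45.3 and 51.2 CPM with guide 3 and 41.4 and 29.5 CPM with guide 5, so guide 5 replicate 2 overlapped control replicate 3. It rose by 0.91 ± 0.22 (limma adjusted p = 0.0065), but by 0.11 after GC correction, which did not pass (adjusted p = 0.45). ATG2B ran the other way without passing the test, at -0.51 ± 0.22 (limma adjusted p = 0.074), from 43.5 to 77.6 CPM in controls to 30.5 to 45.7 CPM in guide libraries.

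The conjugation systems had 2 genes that rose and 2 that fell of 11. ATG4 proteases trim ATG8 before it is attached and release it later, and ATG4D and ATG4C went in opposite directions. ATG4D was at 13.2, 11.03 and 18.3 CPM in the controls, 46.8 and 57.7 CPM with guide 3 and 37.0 and 33.5 CPM with guide 5, a rise without overlap of 1.59 ± 0.20 or 3.01-fold (limma adjusted p = 8.2e-05) and of 0.78 after GC correction (adjusted p = 0.00051). ATG4C was at 43.6, 43.0 and 28.9 CPM in the controls, 26.3 and 20.9 CPM with guide 3 and 23.3 and 28.7 CPM with guide 5. Control replicate 3 and guide 5 replicate 2 nearly met, and ATG4C fell by 0.61 ± 0.20 on the log2 scale (limma adjusted p = 0.030), but by 0.08 after GC correction, which did not pass (adjusted p = 0.56). ATG4A changed by -0.32 and ATG4B by 0.19, with limma adjusted p of 0.30 and 0.37, and ATG4B turned to -0.40 after GC correction (adjusted p = 0.0068). In the summed ATG4 level per kb the share of ATG4D was 11.9% to 23.4% in controls and 34.8% to 47.7% in guide libraries, and that of ATG4C 24.5% to 34.2% and then 11.5% to 19.8%. Transcript GC content was 64.8% for ATG4D and 34.8% for ATG4C.

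ATG5, which is joined to ATG12 in the enzyme complex that places ATG8 on membranes, was at 84.3, 92.0 and 63.1 CPM in the controls, 53.0 and 43.6 CPM with guide 3 and 51.5 and 63.0 CPM with guide 5. The groups were separate by a narrow margin, and ATG5 fell by 0.59 ± 0.19 on the log2 scale (limma adjusted p = 0.025), or by 0.13 after GC correction, which did not pass (adjusted p = 0.24). The calls of ATG5 and ATG4C were each lost without control replicate 1 (adjusted p = 0.083 and 0.11), guide 3 replicate 2 (0.12 and 0.13) or guide 5 replicate 1 (0.12 and 0.13). ATG16L2, a paralog of the ATG16L1 scaffold of this complex, was at 23.3, 48.6 and 31.2 CPM in the controls, 54.3 and 52.4 CPM with guide 3 and 56.8 and 45.7 CPM with guide 5. Control replicate 2 reached into the guide range, and the rise of 0.66 ± 0.23 (limma adjusted p = 0.037) turned to -0.10 after GC correction (adjusted p = 0.76). Leaving out control replicate 1 or 3, either guide 3 library or guide 5 replicate 1 ended the ATG16L2 call (adjusted p = 0.067 to 0.17).

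The other 5 conjugation genes did not pass the test. ATG7, the activating enzyme of both systems, was at 75.1 to 86.0 CPM in controls and 97.3 to 115 CPM in guide libraries, apart, with a change of 0.37 ± 0.16 (limma adjusted p = 0.077). ATG3, the enzyme that hands ATG8 to lipid, was lower in every guide library, at 123 to 150.2 CPM against 162 to 282 CPM, with a change of -0.50 ± 0.20 (limma adjusted p = 0.068). ATG16L1 was also lower without overlap (-0.28 ± 0.18, limma adjusted p = 0.21). ATG12, the ubiquitin-like partner of ATG5, changed by -0.38 ± 0.20 and ATG10, the enzyme that joins the pair, by -0.36 ± 0.24 (limma adjusted p = 0.14 and 0.24), both with overlap.

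Of the 4 ATG8 genes measured, 3 rose. GABARAPL1, which acts in late autophagosome maturation, was at 5.61, 8.04 and 4.58 CPM in the controls, 29.6 and 21.6 CPM with guide 3 and 18.7 and 22.5 CPM with guide 5. All guide libraries lay above the controls, and the rise was 1.86 ± 0.23 or 3.62-fold (limma adjusted p = 5.0e-05), with 1.78 after GC correction (adjusted p = 8.9e-05). MAP1LC3B, the LC3 protein most used as a marker of autophagosomes, was at 33.4, 50.4 and 35.5 CPM in the controls, 64.7 and 50.0 CPM with guide 3 and 54.5 and 63.1 CPM with guide 5. Control replicate 2 overlapped with guide 3 replicate 2, and the rise was 0.56 ± 0.20 (limma adjusted p = 0.037) or 0.57 after GC correction (adjusted p = 0.0029). Its call was lost when any library but control replicate 2 was left out (adjusted p = 0.058 to 0.15).

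MAP1LC3A, a lowly expressed LC3 gene, was at 0.918, 0.421 and 1.64 CPM in the controls, 3.23 and 4.18 CPM with guide 3 and 2.76 and 1.58 CPM with guide 5. Guide 5 replicate 2 fell within the controls, and the rise of 1.23 ± 0.31 (limma adjusted p = 0.0074) did not pass after GC correction (0.42, adjusted p = 0.13) or with quantile normalization (0.62, adjusted p = 0.082). GABARAPL2 was at 41.8 to 59.7 CPM in controls and 56.1 to 63.9 CPM in guide libraries, with a change of 0.30 ± 0.18 (limma adjusted p = 0.18). It carried most of the summed level of these 4 genes per kb, 64.4% to 79.0% in controls and 60.7% to 65.8% in guide libraries, while GABARAPL1 went from 3.74% to 6.33% to 10.9% to 14.4%. Near-identical copies exist for MAP1LC3B and GABARAPL1, so the split of reads between copies is uncertain.

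**Figure D4:**
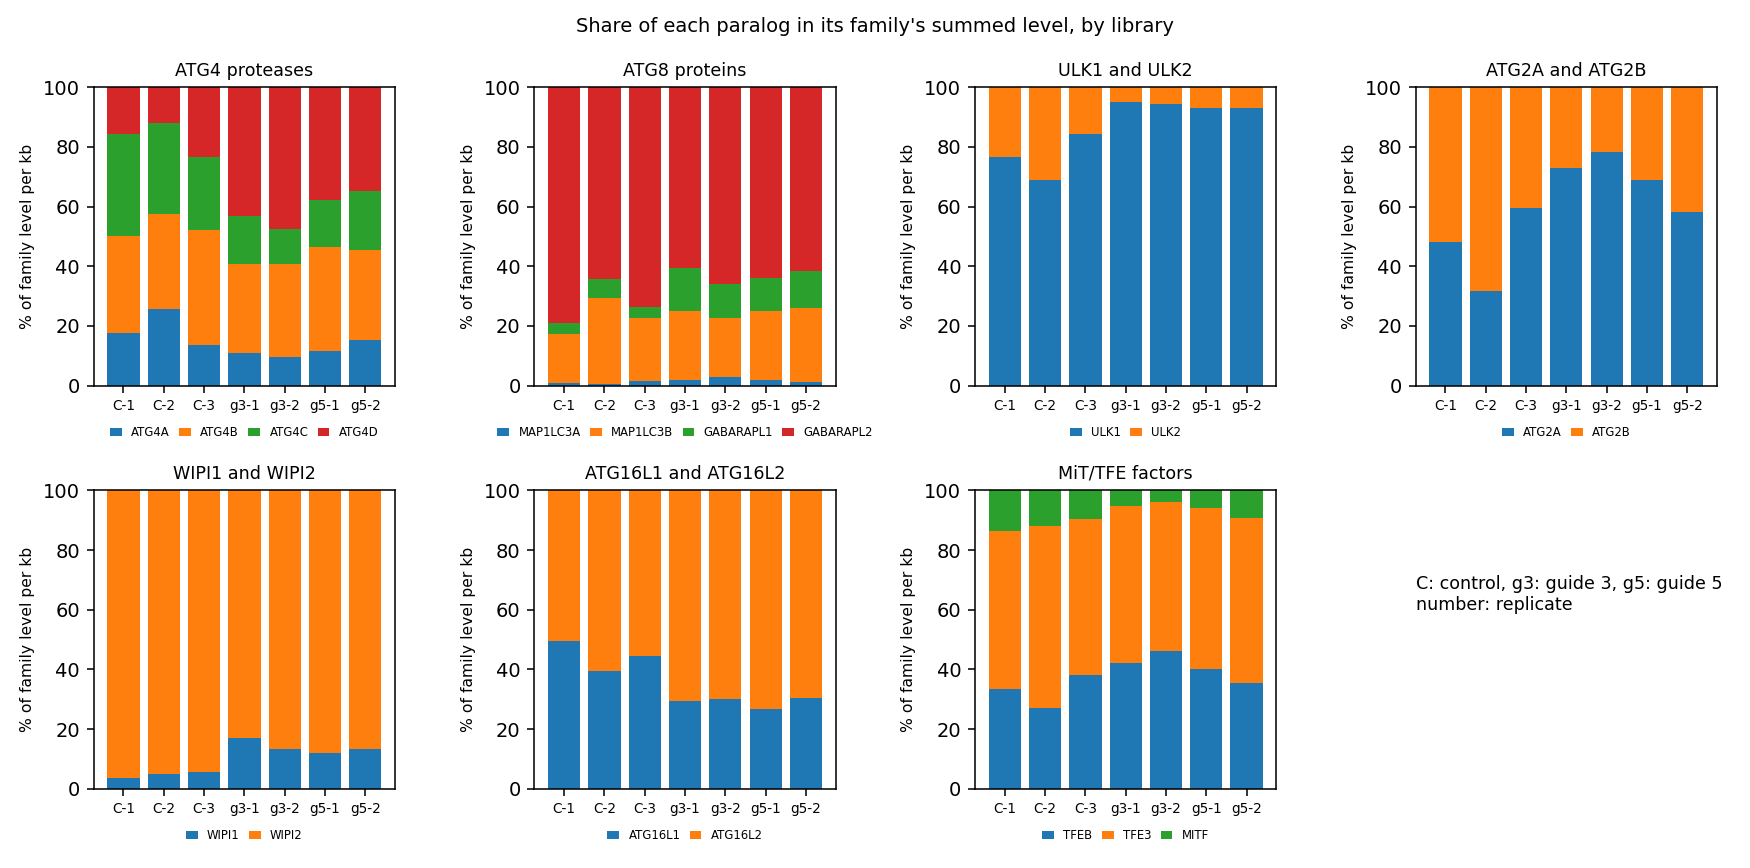
Share (y axis, percent) of each paralog in its family's summed CPM per kb of transcript, as stacked bars for each of the 7 libraries (C: control, g3: guide 3, g5: guide 5, with replicate number). ULK1 takes 92.9% to 94.9% of its pair in guide libraries and ATG4D 34.8% to 47.7% of the ATG4 proteases, whereas the TFEB and ATG2A shares overlap between groups.

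The shares were not tested; they do not depend on the scaling of a library but do depend on the GC trend where paralogs differ in base composition. ATG2A made up 31.8% to 59.6% of the ATG2 sum in controls and 58.1% to 78.3% in guide libraries. ATG16L2 made up 50.4% to 60.6% of the ATG16L sum in controls and 69.4% to 73.3% in guide libraries.

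Baseline levels differed widely between members. In CPM per kb of transcript, ATG3 had the highest control mean, 130.0 ± 43.2 (SD, n = 3), followed by TAX1BP1 at 67.1 ± 23.0, GABARAPL2 at 49.1 ± 9.31, WIPI2 at 48.3 ± 4.80 and CALCOCO2 at 47.3 ± 15.8. The last 4 of these do not differ beyond their spread. The lowest were MAP1LC3A at 0.630 ± 0.389, ULK2 at 0.719 ± 0.109 and ATG10 at 1.32 ± 0.356, the first pair again within their spread. The 7 genes that rose under every alternative held ranks 6 (SQSTM1), 25 (ATG4D), 26 (TFEB), 27 (ATG9A), 32 (GABARAPL1), 33 (ULK1) and 35 (WIPI1) of 38.

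**Figure D5:**
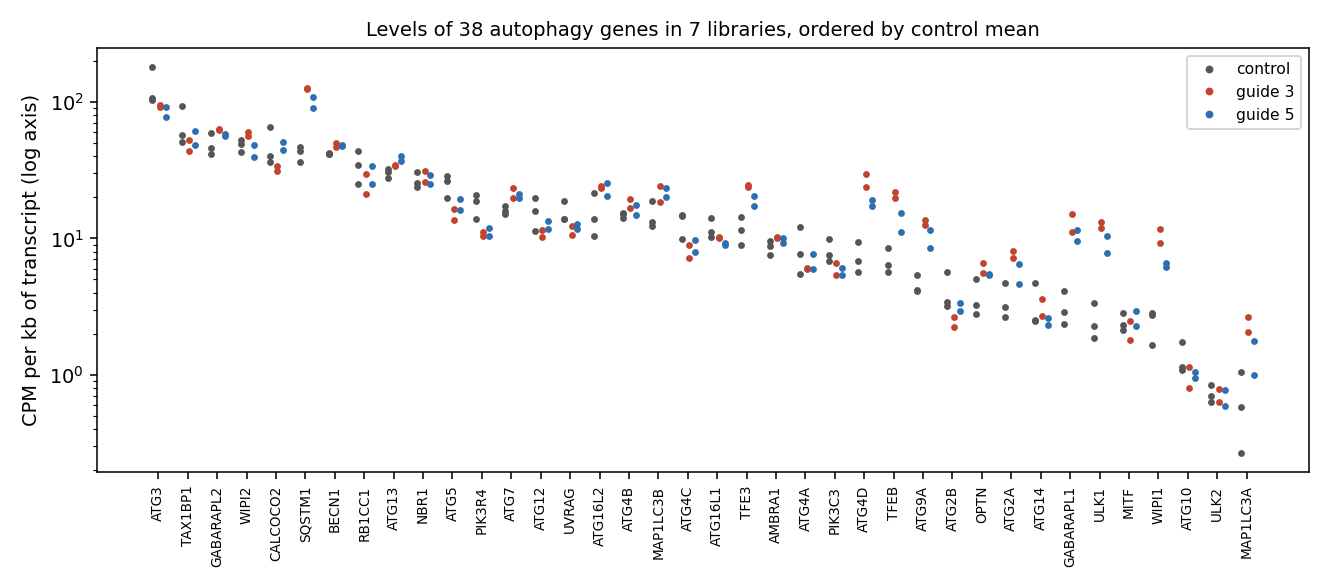
Level (y axis, CPM per kb of transcript, log axis) of each of the 38 genes in the 3 control (grey), 2 guide 3 (red) and 2 guide 5 (blue) libraries, ordered by control mean. The order runs from ATG3 to MAP1LC3A, and red and blue points stand above grey ones most clearly for SQSTM1, ATG4D, GABARAPL1, ULK1 and WIPI1.

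The guides were also compared with the controls one at a time; these comparisons share the 3 controls. With guide 3, 11 of 38 genes were higher and 4 lower, against 21.2% and 18.9% of all genes. The 4 lower ones were ATG2B, ATG4C, ATG5 and PIK3R4. With guide 5, 8 were higher and 0 lower in limma, against 12.2% and 7.68% of all genes; 16 genes had an unadjusted p under 0.05 in either direction, and limma voom on recovered reads called 1 lower. The 8 were ATG4D, ATG9A, GABARAPL1, SQSTM1, TFE3, TFEB, ULK1 and WIPI1. Without guide 5 replicate 1 the count of higher genes was 4, without control replicate 2 it was 12, and without control replicate 3 the count of lower genes was 3. For guide 3 the lower count was 0 without control replicate 1 or either guide 3 library, and 2 without either guide 5 library. The authors' deposited table, at a false discovery rate under 0.05, holds 11 higher and 4 lower members for guide 3 (all genes 20.5% and 19.4%) and 8 higher and 0 lower for guide 5 (all genes 11.9% and 7.81%).

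The changes of ULK1 were 2.32 ± 0.26 with guide 3 and 1.85 ± 0.26 with guide 5, those of GABARAPL1 2.01 ± 0.27 and 1.71 ± 0.27, and those of SQSTM1 1.57 ± 0.20 and 1.24 ± 0.20. TFEB changed by 1.60 ± 0.24 and 0.94 ± 0.24 and WIPI1 by 2.02 ± 0.27 and 1.34 ± 0.27. After GC correction the changes with guides 3 and 5 were 1.38 and 1.22 for ULK1, 1.90 and 1.66 for GABARAPL1, 0.93 and 0.80 for SQSTM1, 0.67 and 0.34 for TFEB and 2.06 and 1.40 for WIPI1, and all 10 still passed. By that correction 10 members were higher and 5 lower with guide 3, and 9 higher and 5 lower with guide 5. Among all genes, lower calls outnumbered higher ones with each guide by that correction. With each guide the share of members called lower was below that of all genes, and the share called higher was above it. No member passed the test of guide 5 minus guide 3 in limma, against 0.412% of all genes. TFEB and WIPI1 were the 2 members with an unadjusted p under 0.05, and limma voom called 0. The TFEB difference was -0.67 (95% interval -1.24 to -0.09, limma adjusted p = 0.43) and the WIPI1 difference -0.68 (-1.33 to -0.04, limma adjusted p = 0.46). For ULK1 the interval of the difference was -1.08 to 0.15, so a difference between guides of up to that size is not excluded. ZFP36L2 mRNA itself changed by 1.92 ± 0.19 with guide 3 and 1.12 ± 0.19 with guide 5.

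Other genes of the pathway were counted in 5 lists, to be read against the 20.9% of all genes called higher and 20.6% called lower (17.7% and 29.4% after GC correction). Of 34 measured lysosome genes of the CLEAR network, the set that TFEB is known to drive, 20 rose and 14 did not pass the test (19 rose and 1 fell after GC correction), with a median change of 0.67 against -0.05 for all genes. SGSH, a heparan sulfate hydrolase, rose by 3.28, CTSD, a lysosomal protease, by 2.39 and PSAP, the saposin precursor, by 2.32, with limma adjusted p of 1.5e-07, 1.1e-06 and 5.3e-07. Of 33 genes on the list of nutrient kinases, most of them partners or regulators of these kinases, 5 rose and 4 fell. DDIT4 and SESN2, stress-induced inhibitors of mTORC1, rose by 2.63 and 1.85, and MLST8, an mTOR partner, by 1.12 (0.33 after GC correction, adjusted p = 0.020). The AMPK subunit PRKAB2 fell by 0.86, and SESN3 and SESN1, relatives of SESN2, fell by 0.82 and 0.77 on the log2 scale.

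Further initiation and membrane factors had 5 that rose and 2 that fell of 19. TP53INP2, an autophagy scaffold that binds ATG8, rose by 2.48, WDR45, a relative of WIPI1, by 1.38, and the ubiquitin adaptor TOLLIP by 1.20, while EI24 and TRAPPC8 fell by 0.63 and 0.62. Of 16 genes on the list of other cargo receptors, which also holds the kinase PINK1, 6 rose and 1 fell. The endoplasmic reticulum receptor RETREG1 rose by 2.31 from 0.312 ± 0.235 CPM (SD, n = 3). The mitochondrial kinase PINK1 rose by 1.46 and the mitochondrial receptor FKBP8 by 1.03, and NUFIP1, a ribosome receptor, fell by 0.87. FKBP8 did not pass after GC correction (0.18, adjusted p = 0.088). Of the 18 genes put on the list for autophagosome fusion 5 rose and 13 did not pass the test, with RILP at 0.85, GRAMD1A at 0.85 and TECPR1 at 0.71. The role of each in fusion was not tested. After GC correction 1 gene of that list rose and 2 fell. RILP, GRAMD1A and TECPR1 no longer passed, at 0.0086, 0.073 and -0.03 (adjusted p = 0.98, 0.58 and 0.89). By that correction the list of nutrient kinases had 6 that rose and 8 that fell, further factors 7 and 4, and the list of other receptors 8 and 3. All adjusted p-values for the named genes of these lists are from limma fits, and those before GC correction were under the threshold. The monocyte markers given above were also higher in the guide libraries than in the controls, and their part in the counts of these lists was not tested.

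Some members share exon bases with another gene, and the strand setting of the authors' counting is not given in the sources used here, so reads of both cannot be told apart. ATG9A shares 38.8% of its exon bases with AC068946.2 on the same strand. On the opposite strand WIPI1 shares 24.3% with ARSG, SQSTM1 20.7% with MRNIP, ATG7 18.1% with VGLL4, ATG4D 15.0% with KRI1 and BECN1 12.4% with CNTD1.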

How the data were processed

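The authors' deposited FPKM of 7 libraries and their deposited table of differential expression were used. The submitters' processing notes name GRCh38.p7 and hg38 as builds and edgeR, HTSeq, limma and STAR 2.5.3 as tools, in roles not given. That table holds log2 fold changes, p-values with false discovery rates, an F statistic (a score) and group mean CPM, a signal scaled by the authors to an adjusted library size, per the file headers.

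FPKM times the authors' gene length (a whole number of bases within 0.01 for 11408 genes; 173 of 11581 have no FPKM) gave CPM and whole reads for 100% of values. Depth limits cover counting error alone. The values log2(CPM + 0.5) were fitted with limma 3.58.1 (R 4.3.3), using 3 group means, a variance trend, two-sided tests and Benjamini-Hochberg adjustment over 11408 genes. The procedure was tested on simulated data. GC content, exons and 3′ UTRs came from GENCODE 29, promoters from RefSeq (GRCh38.p14). The GC and length correction subtracted a spline with 5 degrees of freedom from each library. All members and ZFP36L2 are named, and of each pathway list up to 3 called genes with the largest rise and 3 with the largest fall. Members and lists were chosen with earlier results of these data known. Alternatives were other pseudocounts, filters, scalings and fits, and each library left out in turn.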

Additional observations from a re-analysis of the deposited data

Results flagged for a closer look

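In each of the 38 members the 4 sgZFP36L2 libraries were searched for a value that lies apart by Dixon's ratio (gap over range, at its 95% critical value), which chance exceeds in about 1 in 20 groups. In 3 members a library lay apart. OPTN was highest in guide 3 replicate 1, at 23.1 CPM against 18.9 to 19.5 CPM in the others (ratio 0.845). AMBRA1 was lowest in guide 5 replicate 2, at 46.6 CPM against 50.2 to 51.0 CPM (ratio 0.835). ATG4A was highest in guide 5 replicate 2, at 17.6 CPM against 13.7 to 14.0 CPM (ratio 0.919). The cause was not tested.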

How the results depend on the processing

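Of 16 called members 7 were called the same way under every alternative that gave a value: ULK1, GABARAPL1, WIPI1, ATG4D, SQSTM1, ATG9A and TFEB. The counts of members that rose stayed within 1.5 times of the main counts, except for guide 3 with an FPKM filter, where 21 members were tested (7), and for guide 5 among fits without a library (4 to 12). Members that fell, 3 across guides, numbered 1 with the FPKM filter, 6 with median of ratios, 7 with a same sum of CPM, quantile normalization or GC and length correction, and 0 to 7 without a library. For guide 3 the count of 4 became 1 with the FPKM filter, 8 with a same sum, 2 in a fit of the compared groups alone and 0 to 6 without a library. The FPKM filter removed ATG4C, ATG5 and ATG2B, so these were not tested under it and the lower counts there are not lost calls. For guide 5 the count of 0 became 2 with a same sum or quantile normalization, 1 with median of ratios or voom, 5 with GC and length correction and 0 to 3 without a library. Falls therefore depend on scaling and on single libraries, and the cause was not tested. Across guides, more of all genes were also called lower with a same sum, median of ratios, quantile normalization or GC and length correction.

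The main fit did not pair libraries by replicate number. Deviations from the group mean correlated between -0.58 and 0.44 for same-numbered libraries of different groups. With 2 libraries per guide the deviations of a guide mirror each other, so these values cannot decide whether equal numbers mark paired samples. With the replicate number as a block 7 members fell across guides, 7 with guide 3 and 3 with guide 5, and OPTN and MAP1LC3B were lost. Number 3 is held by control replicate 3 alone, so this block took that library out of the estimates. OPTN (0.50) and MAP1LC3B (0.49) had the same estimates as without control replicate 3. The changed counts therefore cannot be told apart from the loss of that library. With guide 5 numbers crossed, a choice made after seeing the data, 0 members differed between guides.

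The direction of 13 genes turned under some alternative, among them 1 called member, ATG16L2. After GC and length correction the values that turned were MITF 0.32, CALCOCO2 0.046, TAX1BP1 0.10, ULK2 0.077, RB1CC1 0.13, AMBRA1 -0.20, ATG14 0.079, WIPI2 -0.36, ATG4B -0.40, ATG12 0.10, ATG16L2 -0.10 and ATG101 -0.39. With median of ratios MITF was at 0.0118 and ULK2 at 0.0119, and with the replicate block NBR1 was at -0.0072. Without a library MITF ran from -0.16 to 0.062, NBR1 from -0.0072 to 0.17, CALCOCO2 from -0.38 to 0.040, ULK2 from -0.13 to 0.061, ATG14 from -0.30 to 0.14 and WIPI2 from -0.0073 to 0.14.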
